A study of Mus musculus with 63 samples.

Results

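The genes of the proteasome were described in mouse liver over 14 days of a tamoxifen time course. Members were all rows of the deposited expression table whose symbol begins with Psm, a letter from a to g and a digit, which gave 49 of 15616 genes. Of these, 48 passed the filter on low values in males and were tested. Psmc3ip, which has the symbol pattern but encodes a cofactor of meiotic recombination and no proteasome part, reached at most 0.836 RPKM in any library and was not tested. Psma8, the core subunit of the testis proteasome, and Psme2b, an intronless copy of Psme2, were close to nothing, with 0.134 to 1.63 and 0.111 to 1.30 RPKM.

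The proteasome is the main protease of the cytosol and nucleus, and it degrades proteins marked with ubiquitin. Its core is a stack of rings of alpha and beta subunits, and the chain-cutting sites lie in the beta subunits Psmb5, Psmb6 and Psmb7. A regulatory particle caps the core. The ATPases in its base unfold substrates and feed them into the core, and its lid removes ubiquitin. Interferon replaces the 3 cutting subunits by Psmb8, Psmb9 and Psmb10, which gives the immunoproteasome, known for the peptides it supplies to MHC class I molecules. Transcription of the subunits is known to be raised by the factor Nfe2l1 when proteasome activity falls short.

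RNA with poly(A) tails from 63 single livers was sequenced, each liver from its own mouse of 10 to 14 weeks. The 26 KO males were Alb-Cre-ERT2tg; Hcfc1 lox/Y, so that tamoxifen activates a Cre recombinase driven by the albumin promoter, which acts in hepatocytes, on their single Hcfc1 allele. The 25 WT males were lox/Y mice without Cre in the treatment protocol, although their genotype label reads C57BL/6. The 12 Het females were Alb-Cre-ERT2tg; Hcfc1 lox/+ and keep 1 intact allele, and WT females were not analysed here. All groups received 1 mg of tamoxifen per mouse in 3 injections from day 0, so the WT males control for tamoxifen but not for the Cre. Hcfc1 encodes HCF-1, a nuclear cofactor that links transcription factors to chromatin enzymes. Males had 2 libraries per genotype and day on days 0 to 9 and 1 on days 10 to 13, and day 14 had 1 WT and 2 KO libraries. Het livers came 1 a day from 12 of the days.

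Estimated depth ran from 14.07 M to 51.8 M reads per library with a median of 25.82 M. Levels below are RPKM, reads per kilobase of exon scaled to library depth, after each library was scaled to a common median of its tested genes. The level of Hcfc1 is no check of the deletion, because a gene-level value also counts exons outside the lox-flanked part. It was higher in KO males on days 3 to 5, with 12.8 to 17.0 RPKM against 6.39 to 8.50 in WT. Alb encodes the plasma protein albumin and is the defining marker of hepatocytes. On day 0 it was already lower in both KO livers, with 24560 and 26241 RPKM against 51292 and 43765 in WT. It was lower still in most KO libraries after day 0, with 1440 to 9968 RPKM in 21 of them. The exceptions were KO day 6 replicate 2 and both KO libraries of day 8, which had 29763 to 40404. The Het libraries were split too, with 21703 to 41127 on days 0, 1, 3, 10 and 12 and 3273 to 5097 on the other 7 days. Whether these libraries differ in recombination or carry a wrong label was not tested. The count of members that rose on days 6 to 9 was 17 without the 3 KO libraries. The other 9 hepatocyte markers were present throughout, and all 10 markers were lower after scaling on days 10 to 14, with a median log2 difference of -1.08. In whole liver, fewer cells of a type and less RNA per cell cannot be told apart.

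Most genes of the list were strongly expressed. Over all libraries the highest mean levels per length were those of the activator subunit Psme1 at 117 RPKM, of the core subunits Psmb4 at 114, Psmb7 at 111, Psma4 at 111 and Psmb1 at 109, and of Psme2 at 107. In WT livers of day 0 these 4 core subunits averaged 122, 136, 117 and 128 RPKM, above Psme1 at 77.4 and Psme2 at 69.2. The means below are again over all libraries. The immunoproteasome subunits Psmb8, Psmb9 and Psmb10 averaged 33.1, 32.6 and 23.9 RPKM. Assembly chaperones such as Psmd10 at 8.07 and Psmg4 at 9.20 RPKM stood at the low end.

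KO males were compared with WT males of the same days, on day 0 and in windows of days. Rises and falls are named where limma's Benjamini-Hochberg adjusted p, over all 12221 tested genes, was under 0.05 with the same sign both after scaling to the median gene and in the deposited values. This matters because the median gene of KO libraries was higher in the deposited values, by 0.23, 0.33, 0.23 and 0.85 on the log2 scale over the windows of days 1 to 2, 3 to 5, 6 to 9 and 10 to 14. Differences below are log2, KO minus WT, relative to the median gene, with standard errors after ±. A rise here is relative to WT livers of the same days and does not mean a rise since day 0.

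On day 0 none of the members rose or fell, where 0.0327% of all tested genes were called in each direction, and 1 member had an unadjusted limma p under 0.05, as 6.96% of genes did. On days 1 to 2 there were 6 members that rose (background 9.05% of genes) and 0 that fell (1.82%). On days 3 to 5 there were 19 that rose (26.5%) and 0 that fell (9.61%), and on days 6 to 9 there were 18 that rose (35.1%) and 3 that fell (18.8%). On days 10 to 14 there were 25 that rose (38.6%) and 0 that fell (11.1%). As shares of the 48 tested members, the rises came to 12.5%, 39.6%, 37.5% and 52.1%. Changes were thus common in the whole transcriptome, and on days 6 to 9 the members' share of rises lay near that of all genes. In the deposited values alone 14, 37, 25 and 45 members were higher (background 16.6%, 47.4%, 43.8% and 71.8%), and after scaling alone 2, 6, 12 and 7 were lower (6.7%, 24.5%, 29.9% and 33.5%), so the counts depend on the reference chosen. The labels assign the libraries to set 1 or set 2, a division they do not explain. Within set 1, 0, 9, 7 and 24 members rose over the 4 windows, and within set 2, 5, 15 and 19 over the first 3, days 10 to 14 being in set 1 alone.

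The members' differences were less spread than those over all tested genes, and this was already so on day 0. Their standard deviation was 0.148 on day 0, against 0.705 over all tested genes. It was 0.464 on days 10 to 14, against 1.32 over all tested genes. The members' median difference was 0.02 on days 1 to 2, beside 0.04 for all tested genes. This median was 0.15, 0.09 and 0.24 over the 3 windows from day 3, beside 0.04, 0.06 and 0.08 for all tested genes. In each of the 4 windows after day 0, 6 members rose (12.5% of members, 4.12% of all genes): Psmb6, Psmb8, Psmb9, Psme1, Psme2 and Psmf1. From day 3 on, 13 rose in each of the 3 windows (background 14.5%), with Psma2, Psma4, Psmc4, Psmc5, Psmd5, Psmd8 and Psmd13 in addition. There were 15 members that neither rose nor fell in any window (background 25.7%), among them Psmb2, Psmb3, Psmb5, Psmb7, Psmc1, Psmc3 and Psmd14.

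**Figure D1:**
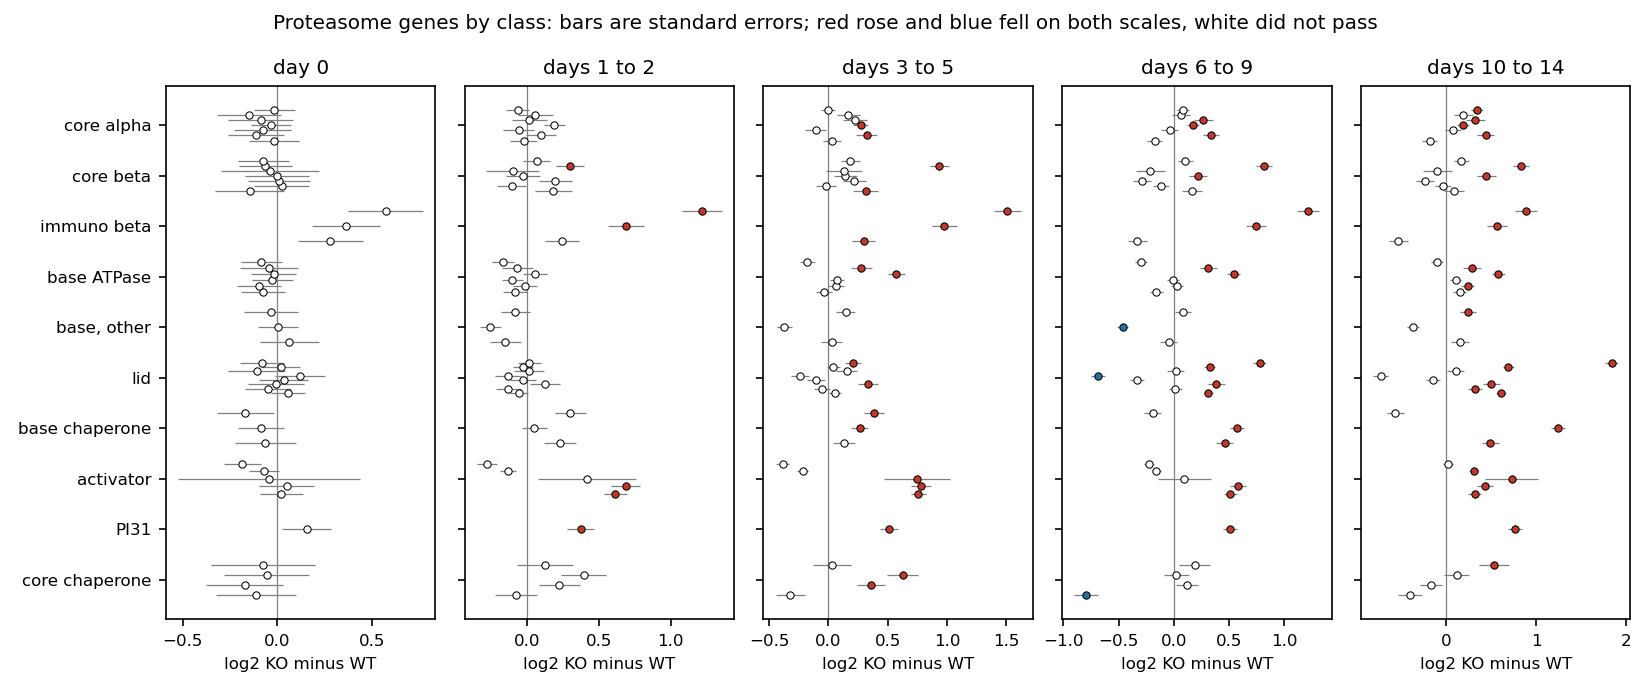
Log2 difference of KO minus WT relative to the median gene (horizontal axis, scaled to each panel) of each tested member but Psma8, 1 point per gene with its standard error, by structural class (vertical axis) and window of days (panels). Red points rose and blue points fell on both scales, and white points did not pass. On days 10 to 14 the lid subunit Psmd8 stands highest at 1.84 and Psmd3 of the same class lowest at -0.73.

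In the plot by class, the members of a class spread over both signs in most windows. All 3 immunoproteasome subunits rose on days 3 to 5, whereas the lid held both Psmd8, which rose, and Psmd3, which fell on days 6 to 9.

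The counts by class and by list below stand beside the shares of all tested genes that rose, which were 9.05%, 26.5%, 35.1% and 38.6% over the 4 windows. Of the 7 alpha subunits, which form the outer rings and the gate of the core, 0, 2, 3 and 4 rose over the 4 windows. Psma2 had differences of 0.32 ± 0.08, 0.34 ± 0.07 and 0.44 ± 0.09 from days 3 to 5 on. In WT livers of day 0 Psma2 averaged 84.3 RPKM. Its level on days 10 to 14 was 68.9 to 95.8 RPKM in the 6 KO livers and 52.9 to 64.9 in the 5 WT livers. Psma3 and Psma6 stayed at 0.07 ± 0.09 and 0.19 ± 0.10 in that last window.

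Of the 7 constitutive beta subunits, Psmb6 stood apart. Psmb6, the caspase-like cutting subunit (mm9, chromosome 11, 70338869 to 70341360, plus strand), had 84.5 and 94.5 RPKM in WT and 80.8 and 90.6 in KO livers on day 0. On days 3 to 5 the KO livers had 136, 146 and 172 RPKM as lowest, median and highest value, and the WT livers 59.4, 80.8 and 89.8. The groups did not overlap on those days, nor on days 6 to 9, when KO livers had 109, 133 and 146 against 67.8, 74.5 and 89.0. Its difference was 0.30 ± 0.10 on days 1 to 2 (adjusted p = 0.04), 0.93 ± 0.08 on days 3 to 5 (adjusted p = 1.01e-09), 0.81 ± 0.07 on days 6 to 9 and 0.83 ± 0.09 on days 10 to 14.

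Psmb5, which cuts after hydrophobic residues (mm9, chromosome 14, 55232644 to 55236851, minus strand), had 39.2, 47.3 and 65.0 RPKM in KO and 35.6, 48.0 and 53.7 in WT livers on days 3 to 5. The ranges overlapped there and in the other windows. Its differences were 0.13 ± 0.15 on days 3 to 5 and -0.10 ± 0.16 on days 10 to 14 (adjusted p = 0.593). Psmb7, with the trypsin-like site, had 0.19 ± 0.08 (adjusted p = 0.0501) and 0.17 ± 0.08 in the same windows. The annotation lists processed copies of Psmb5, Psmb6 and Psmb7 elsewhere in the genome, and how reads shared with them were counted is not given in the sources used here. The remaining constitutive beta subunits that rose were Psmb1 on days 3 to 5, at 0.32 ± 0.11, and Psmb4 on days 6 to 9 and 10 to 14, at 0.22 ± 0.08 and 0.45 ± 0.10. Without the 3 KO libraries of high Alb, Psmb4 no longer passed on days 6 to 9 (0.22, adjusted p = 0.0539).

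**Figure D2:**
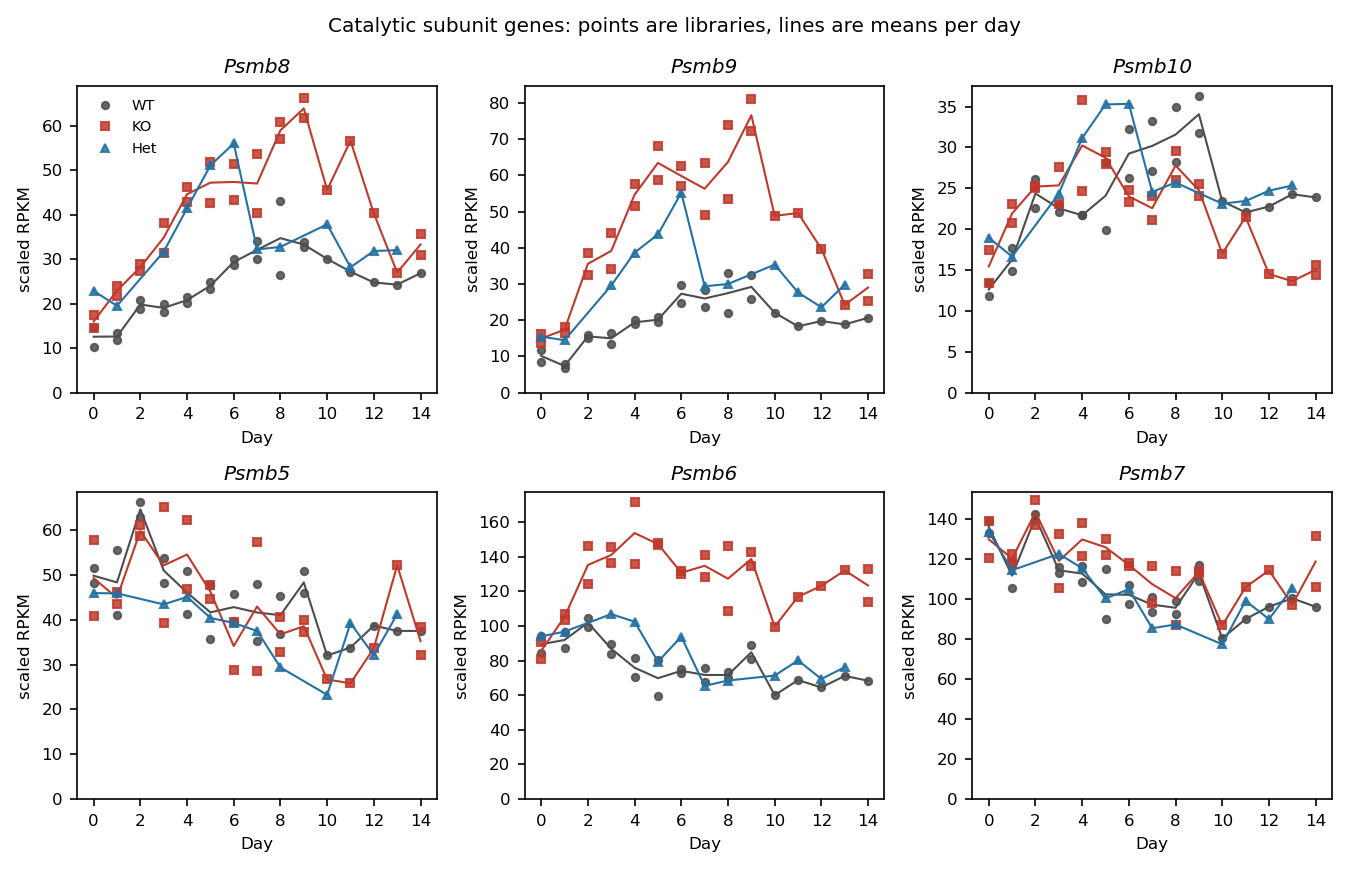
Median-scaled RPKM (vertical axis) by day (horizontal axis) of the 3 constitutive cutting subunits and their 3 immunoproteasome counterparts, 1 point per library, by genotype; lines join the means of a day. Psmb6 of KO males lies at 136 to 172 on days 3 to 5, above the 59.4 to 89.8 of WT males, while the points for Psmb5 are mixed.

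The 250 bases before the annotated starts of Psmb6 and Psmb5 are shown because both encode cutting subunits of the core, of which Psmb6 rose in every window after day 0 and Psmb5 in none. Both windows hold the antioxidant response element, the motif TGACNNNGC bound by the Nfe2l1 and Nfe2l2 factors, which is in capitals. Sequences are from RefSeq, GRCm38.p6, at chr11:70525107-70525356 on the plus strand and chr14:54617996-54618245 on the minus strand.
Psmb6: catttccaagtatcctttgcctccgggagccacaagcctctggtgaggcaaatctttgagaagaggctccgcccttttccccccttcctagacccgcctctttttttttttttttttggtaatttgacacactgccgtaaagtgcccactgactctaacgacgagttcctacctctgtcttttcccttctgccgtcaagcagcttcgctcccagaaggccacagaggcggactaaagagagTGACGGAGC
Psmb5: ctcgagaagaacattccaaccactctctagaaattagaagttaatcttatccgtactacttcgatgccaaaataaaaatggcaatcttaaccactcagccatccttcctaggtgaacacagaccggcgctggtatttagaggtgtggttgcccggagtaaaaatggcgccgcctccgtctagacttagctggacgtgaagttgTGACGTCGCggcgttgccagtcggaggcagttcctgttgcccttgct
The motif was searched on both strands. It occurred in 5 of the 41 members with a promoter in that table (Psmb5, Psmb6, Psmc6, Psmd9 and Psmd12) and in 10.2% of 32851 promoters. Psmc6, an ATPase, neither rose nor fell in any window. A motif match is a description of letters and no evidence of binding.

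The immunoproteasome subunits Psmb8 and Psmb9 rose in all 4 windows after day 0. Psmb9 (mm9, chromosome 17, 34318933 to 34324709, minus strand) had 11.7 and 8.56 RPKM in WT and 13.6 and 16.3 in KO livers on day 0. On days 3 to 5 KO livers had 34.3, 54.7 and 68.2 RPKM as lowest, median and highest, and WT livers 13.5, 19.1 and 20.9, with no overlap. The difference was 1.22 ± 0.14 on days 1 to 2, 1.51 ± 0.11 on days 3 to 5 (2.84-fold, adjusted p = 1.04e-10), 1.22 ± 0.10 on days 6 to 9 and 0.88 ± 0.12 on days 10 to 14. By single days it peaked at 1.65 on day 5 and was 0.37 on day 13 and 0.48 on day 14.

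Psmb8 (mm9, chromosome 17, 34334666 to 34338399, plus strand) lies beside Psmb9 and followed it at smaller size. Its KO livers had 31.4, 42.7 and 51.7 RPKM and its WT livers 18.1, 20.8 and 24.8 on days 3 to 5. On days 6 to 9 the groups overlapped, with 40.4 to 66.1 against 26.3 to 43.1. The differences were 0.69 ± 0.13, 0.98 ± 0.10 (adjusted p = 3.19e-08), 0.74 ± 0.09 and 0.56 ± 0.11. Exons of both genes overlap those of neighbours on the opposite strand. The overlap is with Tap1 for 5.79% of the Psmb9 exon length and with a predicted gene for 6.84% of that of Psmb8. Whether counting used the strand was not stated, and shared reads were not measured.

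A lean of the KO libraries toward these genes was already present on day 0. Psmb9 differed by 0.57 ± 0.20 (adjusted p = 0.42) and Psmb8 by 0.36 ± 0.18 (adjusted p = 0.729). The same held for the interferon-stimulated genes, of which 26 of 27 were above 0 on day 0 with a median of 0.42, none called. Set against the day 0 difference, Psmb9 rose by a further 0.94 ± 0.23 on days 3 to 5 (adjusted p = 0.00535) and 0.65 ± 0.22 on days 6 to 9 (adjusted p = 0.0281), and Psmb8 by 0.62 ± 0.21 on days 3 to 5 (adjusted p = 0.04). Neither passed against day 0 on days 1 to 2, when 0 members did by limma (background 0.155%) and 5 had an unadjusted p under 0.05 (11.8%), or on days 10 to 14.

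Psmb10 (mm9, chromosome 8, 108459628 to 108462292, minus strand), the third immunoproteasome subunit, took another course. It rose on days 3 to 5, by 0.30 ± 0.10 (adjusted p = 0.0147), with 23.1, 27.8 and 35.8 RPKM in KO and 20.0, 21.9 and 28.2 in WT livers. On days 10 to 14 the KO livers had 13.6, 15.1 and 21.5 RPKM, all below the WT livers at 22.0 to 24.3. The difference there was -0.53 ± 0.11 after scaling and 0.24 in the deposited values, so no direction relative to the median gene and to the library total alike can be given. In WT males all 3 rose on days 6 to 9 against day 0, by 1.44 ± 0.16 (Psmb9), 1.37 ± 0.14 (Psmb8) and 1.30 ± 0.14 (Psmb10).

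Ratios within a library need no scaling, and they were formed for each immunoproteasome subunit over the constitutive one it replaces. Genotypes were exchanged within days in a two-sided exact permutation test, and p was adjusted over 12 tests. The ratio of Psmb8 to Psmb5 had a median of 0.248 in WT livers on day 0. On days 6 to 9 it was 1.46 in KO and 0.716 in WT livers, a log2 difference of 0.95 in 4 of 4 days (adjusted exact p = 0.0123). On days 3 to 5 the difference was 0.85 (adjusted exact p = 0.0222). In the last window, days 10 to 14, it was 0.66, higher in 4 of 5 days, and did not pass (adjusted exact p = 0.156), with medians of 1.15 in KO and 0.716 in WT livers.

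The ratio of Psmb9 to Psmb6 differed by 0.57 on days 3 to 5 (adjusted exact p = 0.0222) and 0.40 on days 6 to 9 (adjusted exact p = 0.0123), and by 0.05 on days 10 to 14 (adjusted exact p = 0.854). With the replicate numbers as a block, neither this ratio nor that of Psmb8 to Psmb5 could pass on days 3 to 5. Both had the smallest p the block allows there (adjusted exact p = 0.0625 for each), so the block cannot decide on these calls. Both Psmb9 and Psmb6 rose on days 6 to 9, by 1.22 and 0.81, and on days 10 to 14, by 0.88 and 0.83. The ratio of Psmb10 to Psmb7 went the other way. It was 0.144 in KO and 0.245 in WT livers on days 10 to 14, a difference of -0.70 in 5 of 5 days (adjusted exact p = 0.0417), after -0.43 on days 6 to 9 (adjusted exact p = 0.0123). Without any single library of days 10 to 14 (adjusted exact p = 0.0833 to 0.156), and under the block (adjusted exact p = 0.0938), this call could not pass. The exchanges left allowed no smaller p, so these runs cannot decide whether the call rests on single libraries. The difference without single libraries stayed within -0.806 to -0.633. On day 0 the 3 ratios, in the order given, already differed by 0.40, 0.64 and 0.35, and that of Psmb9 to Psmb6 was 0.64 on day 0 beside 0.57 on days 3 to 5. On days 1 to 2 the smallest p the design allows is 0.0556, and no ratio could pass.

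**Figure D3:**
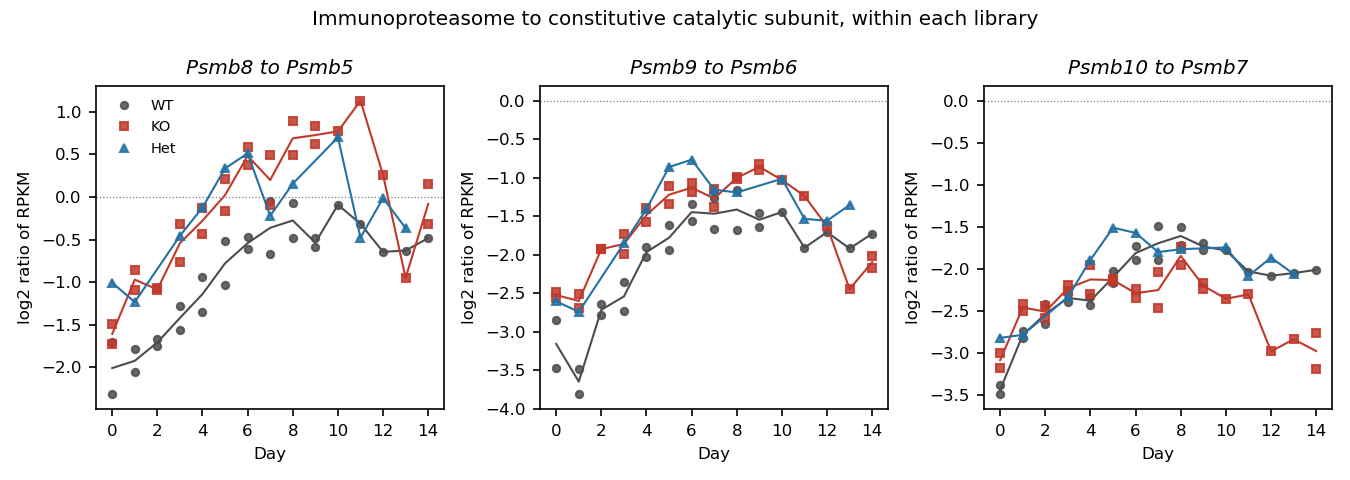
Log2 ratio of each immunoproteasome subunit to the constitutive subunit it replaces (vertical axis) by day (horizontal axis), 1 point per library, by genotype; lines join the means of a day. The ratio of Psmb8 to Psmb5 is higher in KO than in WT males on each of days 6 to 9, and that of Psmb10 to Psmb7 is lower on each of days 10 to 14.

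Of the 6 ATPases of the base, 0, 2, 2 and 3 rose over the 4 windows. Psmc4 had 72.8, 88.9 and 101 RPKM in KO and 53.1, 58.9 and 66.8 in WT livers on days 3 to 5, with no overlap. Its difference held at 0.57 ± 0.07, 0.54 ± 0.06 and 0.58 ± 0.07 over the 3 later windows (adjusted p = 1.89e-07, 1.95e-08 and 1.37e-07). Psmc5 rose by 0.28 ± 0.09 to 0.31 ± 0.08 in the same windows, and Psmc2 on days 10 to 14 by 0.24 ± 0.07. Psmc3 stayed between -0.10 and 0.10 throughout.

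The 3 scaffold and ubiquitin-receptor subunits of the base behaved otherwise. Psmd2, a scaffold, fell on days 6 to 9 by 0.46 on the log2 scale ± 0.05 (adjusted p = 3.43e-08), with 38.4, 43.5 and 47.6 RPKM in KO and 55.4, 59.4 and 68.9 in WT livers. Psmd1, the other scaffold, did not change, at -0.05 ± 0.08. Psmd4, a ubiquitin receptor, rose on days 10 to 14 by 0.25 ± 0.09.

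The lid held the largest rise of the list. Psmd8, a structural lid subunit (mm9, chromosome 7, 29959207 to 29965692, minus strand), had 71.7 and 76.9 RPKM in WT and 66.7 and 74.2 in KO livers on day 0. KO levels then were 79.7 and 73.3 on day 6, 107 and 137 on day 7, 95.0 and 94.0 on day 8, and 120 and 127 on day 9. They reached 116 on day 10, 165 on day 11, 191 on day 12, 335 on day 13, and 256 and 240 on day 14. The WT livers of days 10 to 14 had 49.1, 55.9, 58.1, 57.4 and 55.3 RPKM, and the Het livers stayed within 51.8 to 69.5 over all days. KO and WT livers overlapped on days 3 to 5 (71.7 to 83.2 against 54.0 to 72.6 RPKM) and not in the later windows.

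The difference of Psmd8 was 0.20 ± 0.07 on days 3 to 5 (adjusted p = 0.0151), 0.78 ± 0.06 on days 6 to 9 (adjusted p = 2.58e-11) and 1.84 ± 0.07 on days 10 to 14 (3.58-fold, adjusted p = 9.8e-17). It rose between the windows of days 3 to 5 and days 10 to 14 by 1.64 ± 0.10, the largest such step among the members. By single days it went from 0.36 on day 6 and 1.13 on day 7 to 2.55 on day 13. Leaving out the 3 KO libraries of high Alb gave 0.83 for days 6 to 9. Its promoter window is shown because no other member differed as far between KO and WT males. It held none of the 7 motifs searched, so nothing is in capitals, which says only that these letters are absent from these bases (RefSeq, GRCm38.p6, chr7:29180674-29180923, minus strand).
Psmd8: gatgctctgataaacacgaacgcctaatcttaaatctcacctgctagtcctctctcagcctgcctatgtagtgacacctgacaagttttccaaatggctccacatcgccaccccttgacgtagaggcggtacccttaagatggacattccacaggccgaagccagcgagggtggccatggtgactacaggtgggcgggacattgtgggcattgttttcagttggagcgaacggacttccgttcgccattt

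Of the other 7 lid subunits, Psmd7 and Psmd11 rose late. Psmd7, the partner of the deubiquitinase, had 48.3, 59.1 and 70.1 RPKM in KO and 31.5, 36.9 and 39.3 in WT livers on days 10 to 14, a difference of 0.69 ± 0.06 after 0.04 ± 0.06 on days 3 to 5. Psmd11, a scaffold of the lid, had 67.7, 76.9 and 88.8 against 40.5, 50.1 and 57.5 RPKM, a difference of 0.61 ± 0.05 after 0.06 ± 0.05. Psmd13 and Psmd12 rose by 0.50 ± 0.09 and 0.32 ± 0.07 on those days. Psmd14, the deubiquitinase itself, did not rise, with -0.15 ± 0.08.

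Psmd3, another structural subunit of the lid, went down. On days 6 to 9 it had 22.2, 25.3 and 29.2 RPKM in KO and 37.3, 40.0 and 51.3 in WT livers. The groups did not overlap, and it fell by 0.68 on the log2 scale ± 0.07 (adjusted p = 1.88e-09). Its difference on days 10 to 14 was -0.73 ± 0.08 after scaling but 0.04 in the deposited values. Psmd6, of similar mean level at 48.2 RPKM, stayed at 0.01 ± 0.08 and 0.11 ± 0.09 in these windows.

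**Figure D4:**
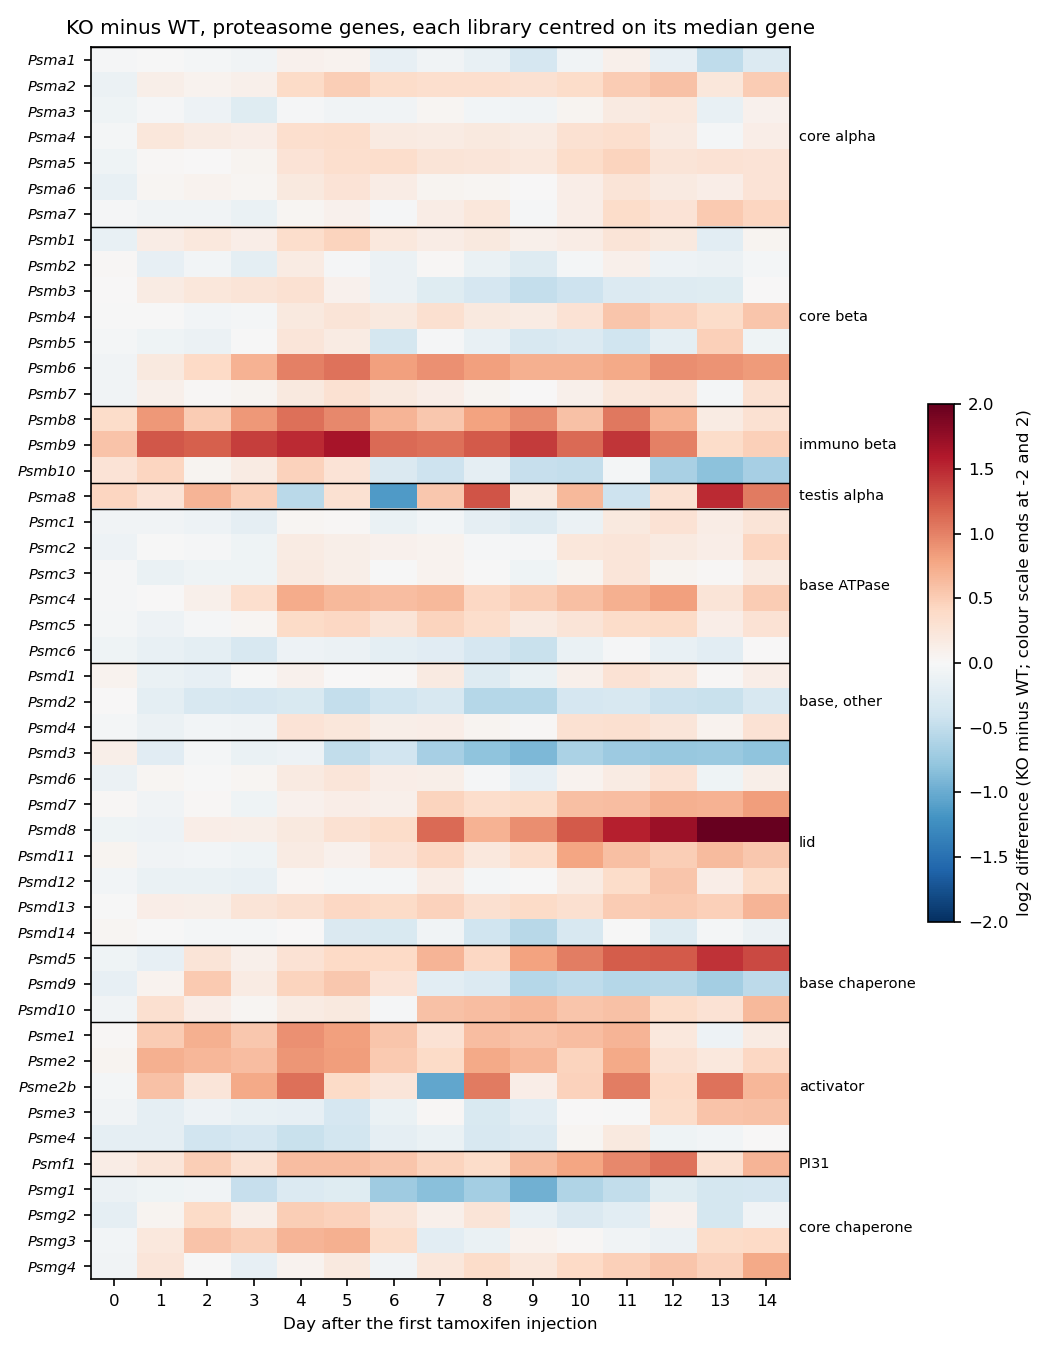
Log2 difference of KO minus WT relative to the median gene (colour scale) for each tested member (rows, grouped by class) on each day (columns). The row of Psmd8 passes from 0.36 on day 6 to 2.55 on day 13, and that of Psmb9 peaks at 1.65 on day 5.

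The assembly chaperones, which help build the particle and leave it, diverged from each other. Psmd5, a chaperone of the base (mm9, chromosome 2, 34707608 to 34726459, minus strand), had 25.5, 36.6 and 45.1 RPKM in KO and 12.4, 15.6 and 16.3 in WT livers on days 10 to 14. It rose by 0.26 ± 0.07, 0.57 ± 0.06 and 1.24 ± 0.07 over the 3 windows from day 3 (last window 2.37-fold, adjusted p = 1.82e-13). Psmd10, a further base chaperone also known as gankyrin, rose by 0.46 ± 0.08 and 0.49 ± 0.10 in the last 2 windows.

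Psmd9, the third chaperone of the base, changed direction. It rose on days 3 to 5, with 12.1, 12.9 and 16.0 RPKM in KO and 8.81, 10.4 and 11.5 in WT livers and a difference of 0.39 ± 0.09 (adjusted p = 0.000655). On days 10 to 14 the KO livers had 5.56, 6.13 and 6.65 RPKM and the WT livers 7.82, 9.21 and 9.78, a difference of -0.57 ± 0.09 after scaling and 0.20 in the deposited values. The step between the windows of days 3 to 5 and days 10 to 14, -0.95 ± 0.13, passed on both scales (adjusted p = 8.16e-07).

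The promoter windows of Psmd9 and Psmd10 are shown for their motifs, in capitals. That of Psmd9 holds, from far to near the start, the interferon-stimulated response element, an E-box CACGTG and the antioxidant response element. That of Psmd10 holds CCAAT in either orientation and the core motif of THAP11, a DNA-binding partner of HCF-1, which 1 of 41 members and 1.35% of all promoters have (RefSeq, GRCm38.p6, chr5:123227940-123228189, plus strand, and chrX:140956712-140956961, minus strand).
Psmd9: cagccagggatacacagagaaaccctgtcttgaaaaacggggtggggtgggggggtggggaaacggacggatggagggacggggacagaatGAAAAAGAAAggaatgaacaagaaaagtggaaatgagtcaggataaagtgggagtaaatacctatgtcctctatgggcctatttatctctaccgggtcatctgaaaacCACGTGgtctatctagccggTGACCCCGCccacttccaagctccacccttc
Psmd10: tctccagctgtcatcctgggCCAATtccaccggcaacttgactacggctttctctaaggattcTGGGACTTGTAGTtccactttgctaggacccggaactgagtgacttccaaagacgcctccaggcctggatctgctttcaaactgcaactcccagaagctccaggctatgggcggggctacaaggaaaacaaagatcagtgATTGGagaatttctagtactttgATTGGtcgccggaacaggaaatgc
Of the other motifs, the ETS motif CCGGAAG occurred in 13 members and 6.91% of all promoters, CCAAT in 14 and 33.8%, the interferon element in 3 and 2.98%, the E-box in 4 and 6.02%, and the YY1 motif ATGGCGG in 1 (Psmd1) and 2.21%. The members with the ETS motif include Psmd11, which rose late, Psmd2 and Psmg1, which fell on days 6 to 9, and Psmc1, which did neither.

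Among the chaperones of the core, Psmg3 and Psmg2 rose on days 3 to 5, by 0.63 ± 0.13 and 0.36 ± 0.12, and Psmg4 on days 10 to 14 by 0.53 ± 0.17. Psmg1 fell on days 6 to 9 by 0.79 on the log2 scale ± 0.11 (adjusted p = 4.56e-07). Its KO livers had 6.51, 8.60 and 10.3 RPKM and its WT livers 11.4, 15.4 and 16.5. Psmg1 and Psmg2 form a pair in the cell, and in that window Psmg2 had 0.12 ± 0.10.

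Of the activators, which open the core without ubiquitin, Psme1 and Psme2 moved as one. They encode the subunits of the interferon-induced activator PA28. On days 3 to 5 Psme1 had 131, 173 and 197 RPKM in KO and 91.7, 99.4 and 106 in WT livers, and Psme2 had 125, 146 and 175 against 83.4, 84.0 and 93.5. Neither pair of groups overlapped. The differences of Psme1 were 0.61 ± 0.08, 0.76 ± 0.07, 0.51 ± 0.06 and 0.32 ± 0.07 over the 4 windows, and those of Psme2 were 0.69 ± 0.10, 0.78 ± 0.08, 0.58 ± 0.07 and 0.43 ± 0.09. Unlike Psmb8 and Psmb9, they showed 0.02 ± 0.11 and 0.05 ± 0.14 on day 0.

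The nuclear activators differed from Psme1 and Psme2. Psme3 was at -0.22 ± 0.05 on days 3 to 5 after scaling, with 0.07 in the deposited values, and rose on days 10 to 14 by 0.30 ± 0.05. Psme4, which encodes PA200, was at -0.39 ± 0.06 and 0.02 ± 0.06 in those windows. Psmf1, the inhibitor PI31, rose in all 4 windows and most on days 10 to 14, with 11.7, 14.1 and 17.7 RPKM in KO and 7.89, 8.30 and 9.54 in WT livers (0.77 ± 0.08, adjusted p = 4.93e-09). Psme2b passed on days 3 to 5 and 10 to 14 at 0.75 ± 0.28 and 0.73 ± 0.30, on an estimated median of 13.6 reads per library that may come from Psme2 itself.

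**Figure D5:**
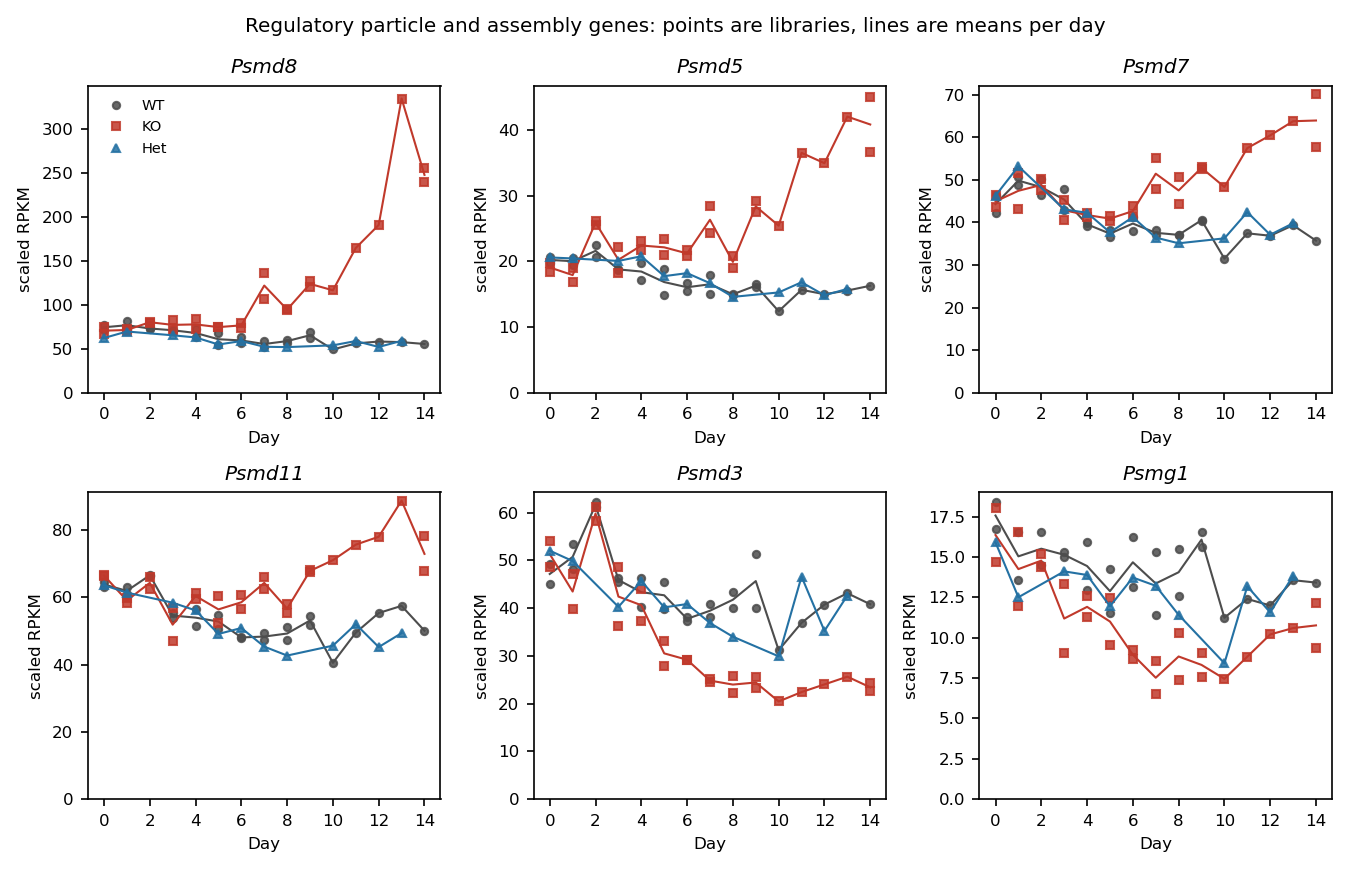
Median-scaled RPKM (vertical axis) by day (horizontal axis) of the lid subunits Psmd8, Psmd7, Psmd11 and Psmd3 and the chaperones Psmd5 and Psmg1, 1 point per library, by genotype; lines join the means of a day. Psmd8 of KO males passes from 66.7 and 74.2 on day 0 to 335 on day 13, while the Het females stay within 51.8 to 69.5.

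The step between windows was tested as the KO minus WT difference of days 10 to 14 less that of days 3 to 5. It was higher for 9 members (18.8% of members, background 28.1%) and lower for 1 (2.08%, background 10.6%). Both were smaller shares than over all tested genes. The 9 were Psmd8, Psmd5 (0.98 ± 0.10), Psmd7 (0.65 ± 0.08), Psmd11, Psme3, Psme4, Psmd12, Psmd10 and Psma7. Of these, Psme4 rose against WT in neither window. Against the difference on day 0, 7 members had risen on days 3 to 5 (background 7.91%), 8 on days 6 to 9 (11.1%) and 14 on days 10 to 14 (23.4%). Psmb6 was highest of the 7 at 1.00 ± 0.16, and Psmd8 of the 14 at 1.92 ± 0.14. The lone fall was Psmd3 on days 6 to 9, at -0.80 ± 0.15 (background 8.21%). These counts rest on 2 libraries per genotype on day 0. On days 3 to 5 the count was 4 without KO day 0 replicate 1, 4 without KO day 0 replicate 2 and 2 without WT day 0 replicate 1. On days 6 to 9 it was 4, 2 and 3 without the same libraries, and on days 10 to 14 it was 8 without KO day 0 replicate 1 and 8 without WT day 0 replicate 1.

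Relative to WT day 0, the members that rose in WT males were interferon-inducible ones. Against that day, 1 member rose on days 1 to 2 (background 4.53%), 4 on days 3 to 5 (12.4%), 5 during days 6 to 9 (18%) and 4 during days 10 to 14 (16%). These were Psmb8, Psmb9, Psmb10, Psme1 and Psme2, the first of them being Psmb10, at 0.65 ± 0.15 on days 1 to 2. Without WT day 0 replicate 2 the counts were 0 on days 1 to 2 and 1 on days 3 to 5. After scaling, 36 of the 48 members were lower during days 10 to 14 (background 18%), and 27 were higher in the deposited values (77.4%). In both male genotypes the livers of days 10 to 14 were all of set 1 and those of day 0 of both sets. The fit had no term for set, so set and day cannot be fully told apart in these changes.

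In KO males 6 members rose on days 1 to 2 against KO day 0 (background 6.61%), 8 on days 3 to 5 (22.4%), 13 during days 6 to 9 (30.6%) and 12 during days 10 to 14 (35.6%). Psmb9, Psme1 and Psme2 led on days 1 to 2, at 0.74 ± 0.17, 0.73 ± 0.10 and 0.73 ± 0.13. Without KO day 0 replicate 1, 2 members rose in that window. On days 6 to 9 Psmb9 had risen by 2.09 ± 0.16 and Psmb8 by 1.75 ± 0.14. The leaders on days 10 to 14 were Psmd8 at 1.49 ± 0.10, Psmb9 at 1.31 ± 0.16 and Psmb8 at 1.30 ± 0.15. These comparisons and those with WT share the same KO libraries. After scaling, the members' median change on days 10 to 14 against day 0 was -0.13 in KO males and -0.43 in WT males. For all tested genes it was 0.04 and -0.05.

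In the Het females, set against their own days 0 and 1, 2 members rose on days 3 to 5 (background 3.55%), 4 on days 6 to 8 (9.28%) and 2 on days 10 to 13 (12.9%). Psmb9 passed in all 3 windows, at 1.30 ± 0.27, 1.31 ± 0.27 and 0.96 ± 0.26, and stood at 15.5 RPKM on day 0, 55.2 on day 6 and 29.8 on day 13. Psmb10 and Psmb8 rose on days 6 to 8 by 0.69 ± 0.18 and 0.90 ± 0.26. Psmd8 and Psmb6 did not rise in females in any window. In the deposited values 46, 45 and 33 of the 47 tested members were higher over the 3 windows (background 72.8%, 84.9% and 70.5%). After scaling, 4 were lower on days 6 to 8 (3.51%) and 15 on days 10 to 13 (8.06%). The windows of days 3 to 5 and 10 to 13 mix livers of high and low Alb, and both livers of days 0 and 1 had high Alb. Without the high-Alb livers of days 3, 10 and 12, 2 members rose on days 3 to 5 and 0 on days 10 to 13. The counts on both scales lean on single livers: without Het day 1 they were 0 in all 3 windows, without Het day 0, day 4 or day 5 the first was 0, without Het day 6 the second was 2, and without Het day 0 or day 10 the third was 1.

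The change since days 0 and 1 was compared directly between Het females and KO males, in which sex and genotype cannot be told apart. All Het livers were of set 1, while the KO livers of days 0, 1 and 3 to 8 were of both sets. The fit had no term for set. The change was lower in females for 1 member on days 3 to 5 (background 0.46%), 2 on days 6 to 8 (3.44%) and 9 on days 10 to 13 (20%), and higher for 1 on days 6 to 8 (8.45%). Psmb6 was lower in all 3 windows, at -0.63 ± 0.17, -0.81 ± 0.17 and -0.67 ± 0.17. Psmd8 and Psmd5 had the largest gaps on days 10 to 13, of -1.64 ± 0.13 and -1.28 ± 0.13. The immunoproteasome subunits were not among these members.

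Genes that work with the proteasome were described from lists of the same pathway. Of 20 partners and regulators, 4 rose and 1 fell on days 3 to 5, 11 and 3 on days 6 to 9, and 10 and 0 on days 10 to 14. The rises on days 3 to 5 were a smaller share than the 26.5% of all tested genes. Those of the 2 later windows were larger shares than the 35.1% and 38.6% of all tested genes. Falls among all tested genes were 9.61%, 18.8% and 11.1% in these windows. Nfe2l2, the antioxidant factor NRF2, rose in all 4 windows, up to 1.24 ± 0.11 on days 10 to 14 (adjusted p = 2.13e-10), and Nfe2l1 by 0.21 ± 0.08 to 0.28 ± 0.06 from day 3 on. Zfand2a, a stress-induced proteasome adaptor, rose by 1.33 ± 0.10 on days 10 to 14, and Pomp, the maturation factor of the core, by 0.37 ± 0.10 on days 3 to 5. Uchl5, a deubiquitinase of the regulatory particle, fell on days 3 to 5, at -0.71 ± 0.12. Of 29 ubiquitin and p97 genes, 9 rose and 1 fell on days 3 to 5, and 12 rose and 1 fell in each of the 2 later windows, shares close to the 26.5%, 35.1% and 38.6% of all tested genes. The polyubiquitin gene Ubb rose to 1.43 ± 0.09 on days 10 to 14, and the conjugating enzyme Ube2d1 was the one that fell, at -1.68 ± 0.10 on days 3 to 5.

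Of 13 MHC class I presentation genes, 5, 9, 11 and 8 rose over the 4 windows, and 0 fell, beside 9.05%, 26.5%, 35.1% and 38.6% of all tested genes that rose. The peptide transporter genes Tap1 and Tap2 had 0.80 ± 0.10 and 0.78 ± 0.08 on days 3 to 5. Of 27 interferon-stimulated genes, 21, 22, 21 and 13 rose over the 4 windows, and 1 fell on days 10 to 14. Isg15 had 1.58 ± 0.14 on days 1 to 2 and 0.82 ± 0.13 on days 10 to 14, and Irgm1 was the one that fell, at -1.07 ± 0.08.

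Immune cells are known to hold much immunoproteasome, and the levels of their markers are given here beside it. The summed level of 11 macrophage markers had a median of 393 RPKM (232 to 584) in KO and 266 (186 to 481) in WT livers on days 3 to 5, 668 (536 to 872) against 595 (451 to 825) on days 6 to 9, and 806 (642 to 914) against 453 (297 to 707) on days 10 to 14. The ranges overlapped in each of these windows. Of these 11, 0, 2, 2 and 6 rose over the 4 windows. The sum of 14 T, B and NK cell markers was 7.95 (4.40 to 9.86) against 3.66 (2.62 to 5.68) on days 1 to 2, and 10.9 (7.21 to 13.2) against 9.73 (6.54 to 11.8) on days 3 to 5. On days 6 to 9 it was 15.5 in KO and 16.9 in WT livers, and on days 10 to 14 it was 12.0 and 13.3, with overlapping ranges. The sum of 6 dendritic cell markers was 3.26 (1.84 to 5.53) in KO and 1.87 (1.58 to 2.39) in WT livers on days 6 to 9, and 4.34 (3.54 to 6.73) against 2.02 (1.93 to 3.47) on days 10 to 14. Of these 6, 2 were tested and 1 rose in each window after day 0. In WT livers the macrophage sum went from 126 on day 0 to 595 on days 6 to 9, as Psmb9 went from 10.1 to 27.1. Of 8 stellate cell markers all 8 rose on days 10 to 14, and of 6 bile duct markers 4. Among 5 tested neutrophil markers 3 rose on days 3 to 5, and Mpo, Elane, Camp and Ngp were at 0 in 8, 5, 12 and 3 libraries. The part of these cells in the values of Psmb8, Psmb9 and Psmb10 was not tested.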

How the data were processed

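The deposited table holds 1 value per gene and library, on the log2 scale. The values were read as RPKM plus 8.9e-05, a constant taken from the lowest value of -13.4557 on the assumption that it stands for no reads. Reads were aligned with TopHat2 2.0.13 and Bowtie 1.1.2 to mm9 and handled with edgeR, per the submitters' processing notes. Since the deposited values are not counts, limma 3.58.1 (R 4.3.3, trended variance) was used. Fits covered 51 male libraries (12221 genes, at least log2 0 in 4 libraries), 12 female libraries (11632 genes) or all 63 (12380 genes). Males had 1 mean per genotype and day, and females had 1 mean per window of days. The spread within females thus includes change between the days of a window. Each library was centred on its median tested gene. Fold changes, standard errors and p-values come from the fits to the centred values, and a call also needed the deposited values to pass at an adjusted p of 0.05. Self-tests used simulated data. Depth was estimated from 36617 low values, of which 99.6% lay within 0.02 reads of a whole number. The main fit had no term for replicate number or set. On days 0, 1 and 3 to 8 replicate 1 of both male genotypes was in set 1 and replicate 2 in set 2.

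Every member is accounted for by class. Given in full are up to 4 members per window that rose and 4 that fell, by size, and a set of class examples whatever they did (Psmb5, Psmb8, Psmb9, Psmb10, Psmc4, Psmd4, Psmd11, Psmd14, Psme1, Psme2 and Psmf1). Up to 3 each way are named in the other comparisons and up to 3 per pathway list by smallest p, and other members and genes named were chosen after their values were seen. Members and lists were chosen with earlier results of these data known. Differences against day 0 and those without the KO or Het libraries of high Alb were added after the data were seen. Alternatives covered scaling, filter, pseudocount, block, set, window and single libraries. Python 3.11.15 was used for ratios, motifs and figures.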

Additional observations from a re-analysis of the deposited data

Results flagged for a closer look

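Members whose change differed between groups or between windows are listed with the log2 difference of the changes, each tested by limma on both scales. The change since days 0 and 1 was smaller in Het females than in KO males for Psmb6 on days 3 to 5 (-0.63), and for Psmb6 (-0.81) and Psmd8 (-0.71) on days 6 to 8. Psmg1, a chaperone of the core, differed in the other direction on days 6 to 8, at 0.71. On days 10 to 13 it was smaller in females for the lid subunits Psmd8 (-1.64), Psmd11 (-0.70), Psmd7 (-0.67) and Psmd12 (-0.38) and the chaperone Psmd5 (-1.28). The same held for the core subunits Psmb6 (-0.67) and Psma7 (-0.35), the ATPase Psmc4 (-0.42) and the activator Psme3 (-0.38). Sex and genotype cannot be told apart in these differences, and set was not balanced between the Het and KO livers.

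The KO minus WT difference was larger on days 10 to 14 than on days 3 to 5 for Psmd8 (1.64), Psmd5 (0.98), Psmd7 (0.65), Psmd11 (0.56) and Psme3 (0.52). It was also larger for Psme4 (0.41), Psmd12 (0.37), Psmd10 (0.36) and Psma7 (0.35), and smaller for Psmd9 (-0.95).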

How the results depend on the processing

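No call of a member turned direction under any alternative run. Of the members' calls tested under each, all 185 kept with 0.1 RPKM added, 183 with no filter, 175 with quantile normalization, 40 of 71 in set 1 alone, 36 of 45 in set 2 alone, 58 of 70 with the window's libraries alone, 36 of 41 without days 13 and 14, 40 of 43 without the KO libraries of high Alb and 2 of 3 without the later Het ones. Leaving out 1 library at a time kept 1931 of 2103. The runs within a set had 1 mean per genotype and window. All libraries of days 10 to 14 are of set 1, so its 24 rises there, beside 25 in the main fit, reuse the same libraries. In the windows of days 1 to 2, 3 to 5 and 6 to 9, 0, 9 and 7 members rose in set 1, beside 6, 19 and 18 in the main fit.

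Windows are given in order of days. With centred values alone, KO against WT fell for 2, 6, 12 and 7 members, and set against day 0, 1 rose on days 1 to 2 while 1, 4 and 3 fell later, with 10 falling late against early. Over time 11, 16 and 17 fell in KO and 9, 22 and 36 in WT from days 3 to 5 on, and 4 and 15 in Het from days 6 to 8 on. Of the Het changes against KO, 7 fell on days 6 to 8 and 4 rose on days 10 to 13. With deposited values alone, KO against WT rose for 14 and 37 members and for 45 on days 10 to 14, against day 0 for 13 on days 3 to 5 and 40 on days 10 to 14, and late against early for 32. Over time 23, 40, 36 and 47 rose in KO, 20, 39 and 27 in WT and 46, 45 and 33 in Het, and of the Het changes against KO 2 rose on days 6 to 8 and 36 fell on days 10 to 13.

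With quantile normalization, KO against WT fell for 2, 8, 14 and 5, and against day 0 for 4, 9 and 4, with 25 rising on days 10 to 14, and late against early 25 rose and 7 fell. KO over time fell for 1, 14, 16 and 11 with 20 rising on days 10 to 14, and WT rose for 3 on days 1 to 2 and fell for 9 and 13 from days 6 to 9 on. Het rose for 1 on days 3 to 5, as with no filter (1), and Het against KO rose for 1, 6 and 6 and fell for 0 on days 3 to 5. In set 1 alone 0, 9 and 7 rose and 0 fell on days 6 to 9. The cause was not tested.

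Leaving out single libraries gave ranges of rises in KO against WT of 4 to 6, 14 to 22, 17 to 19 (3 to 4 fell) and 24 to 28, and against day 0 of 0 to 1, 2 to 10, 2 to 10 and 8 to 16, with late against early 8 to 13 rising and 1 to 2 falling. Over time they were 2 to 6, 7 to 9, 9 to 15 (0 to 1 fell) and 9 to 12 in KO, 0 to 1, 1 to 4, 4 to 6 and 3 to 4 in WT, and 0 to 3, 0 to 4 and 0 to 2 in Het, and without the Het livers of high Alb after day 1, 0 rose on days 10 to 13. Ratios ranged over 0.721 to 0.856, 0.762 to 0.934, 0.876 to 1.03 and 0.462 to 0.904 for Psmb8 to Psmb5. For Psmb9 to Psmb6 they ranged over 0.834 to 1.00, 0.510 to 0.637, 0.339 to 0.469 and -0.102 to 0.198, the sign turning without day 10 (-0.0375) or day 11 (-0.102) of either genotype. For Psmb10 to Psmb7 they ranged over 0.118 to 0.236, 0.0524 to 0.170, -0.489 to -0.379 and -0.806 to -0.633. In the last window the exchanges left were too few for any to pass (adjusted exact p = 0.0833 to 0.156). Without the unnumbered KO library of day 14, 2 members fell late against early.

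The replicate block changed 1 of 71 member calls. On days 0, 1 and 3 to 8 the replicate numbers of the males follow set 1 and set 2, and the main fit has no term for either. On each of days 0 to 9, the difference of replicate 1 less replicate 2 was taken across tested genes. Its correlation between KO and WT was -0.0554 to 0.286. Under the block 3 ratios could no longer pass, because fewer exchanges were possible and each had the smallest p allowed. These were Psmb8 to Psmb5 (0.848, adjusted exact p = 0.0625) and Psmb9 to Psmb6 (0.574, adjusted exact p = 0.0625) on days 3 to 5. The third was Psmb10 to Psmb7 (-0.743, adjusted exact p = 0.0938) on days 10 to 14. Psme2b, at a median of 13.6 estimated reads, is limited by depth.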
